A study of Mus musculus with 12 samples.

Results

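Laminins, type IV collagens, nidogens and heparan sulfate proteoglycans build the basement membrane, and integrins are the receptors with which cells hold it. In tongues of mouse embryos whose muscle lineage had lost Smad4, 5 integrin subunits were lower on all mutant arrays than on any control array. They were 4 of 11 alpha subunits and 1 of 9 beta subunits. In either direction, mutant and control arrays did not overlap for these 5 of the 41 genes described here (12.2%). The either-direction share of all genes was 6.30%, and the share lower on every mutant array is not given here. The type IV collagens and most laminin chains did not pass the test. The genes described here were taken by name: every gene of the array whose symbol starts with Lama, Lamb, Lamc, Itga or Itgb followed by a digit, with Col4a1 to Col4a6, Nid1, Nid2, Hspg2 and Agrn, and without the Itgb1bp genes. That gave 41 of the 18193 genes with a probe set of a single symbol. There were 10 laminin chains, 6 type IV collagen chains, 4 nidogens and proteoglycans, 20 integrin subunits, and Itgb3bp, which the naming rule takes in although it encodes a centromere protein and no integrin. Integrins named with a second letter, such as Itgav, fall outside the rule.

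The mutant embryos were Myf5-Cre;Smad4flox/flox, so that Cre made from the gene of the muscle determination factor Myf5 removes both copies of Smad4, the shared mediator of TGF-β and BMP signals, from the cells that express it. The controls were Myf5-Cre;Smad4flox/+ and carried the same Cre with 1 floxed copy, so they too are expected to lose that copy in the lineage. All were on the C57BL/6J background at embryonic day 13.5, with 6 arrays in each group that the labels call biological replicates. Total RNA of the tongue primordium was hybridised, so cells outside the Myf5 lineage keep Smad4, and in each value fewer cells of a type and less RNA per cell cannot be told apart. The labels do not tie samples to litters, so p values measure the spread between these samples.

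Laminin is a trimer of an alpha, a beta and a gamma chain that polymerises at the cell surface; type IV collagen forms another network, and nidogens and perlecan join them. Each integrin is a pair of an alpha and a beta subunit, and the alpha subunit largely sets the ligand. In developing muscle, laminin with the alpha 2 chain surrounds fibres, and the integrin of alpha 7 and beta 1 is its main integrin receptor.

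Values are log2 signals of the brightest probe set of each gene. Array medians lay between 6.10 and 6.18, arrays correlated at 0.991 to 0.997, and the median of all probe sets was 6.13. Smad4 itself averaged 12.14 in mutants and 12.29 in controls (difference −0.15 ± 0.10 SE, limma adjusted p = 0.427); where its probes lie relative to the deleted part is not known here, so it does not check the genotype. Of 14 skeletal muscle markers all were lower in mutants, with a median of −0.71, and the mean of the list lay between 11.06 and 11.74 on mutant arrays and between 11.90 and 12.34 on control arrays. The dimmest muscle marker averaged 7.41 and the dimmest of 11 oral epithelium markers 9.23, both above that median. Some arrays stand apart in earlier results on these data: mutant 4, mutant 6 and control 3 carry transcripts of both sexes, mutants 1 and 2 lie farthest from the controls, and mutant 6 and control 6 have a low 18S signal. Calls that end without them are given with each gene.

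Across all 41 genes, 6 fell and 3 rose in the mutant tongue (limma, adjusted p under 0.05 over all genes), with a median difference of −0.01. The share that fell was 14.6%, against 4.80% of all genes, and the share that rose was 7.32%, against 6.30% of all genes. In either direction 21.95% of the members passed, against 11.1% of all genes, whose median difference was 0.01. The 5 members whose mutant and control arrays did not overlap were all integrin subunits. An unequal-variance test passed 6 of the members and 1394 of all genes. The SD of a member over 6 arrays ran from 0.08 to 0.39 in mutants and from 0.05 to 0.35 in controls.

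**Figure D1:**
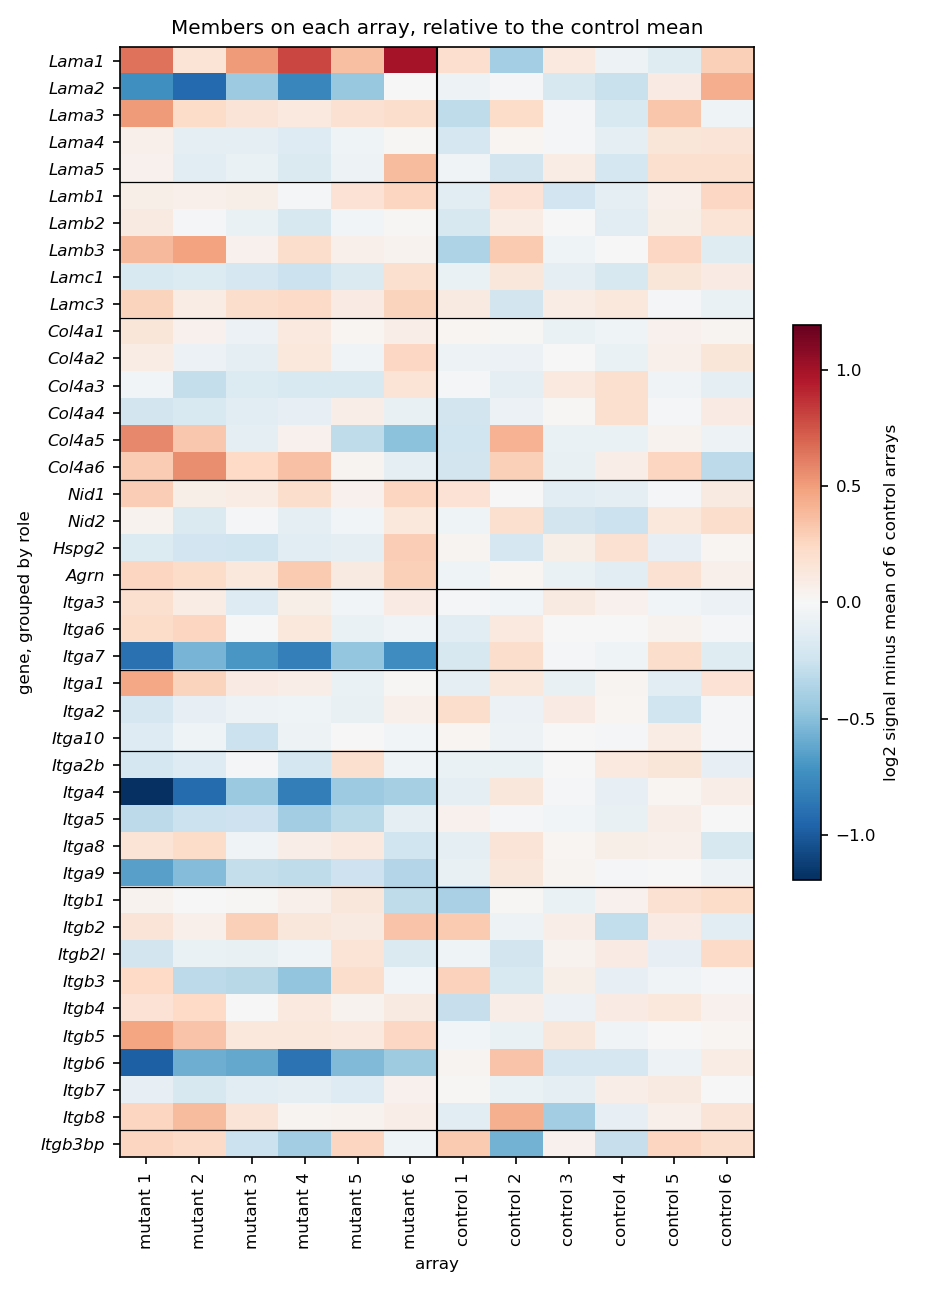
Log2 signal of each of the 41 genes on each of 12 arrays, less the mean of the 6 control arrays (colour scale, blue below and red above), with mutant arrays on the left and control arrays on the right and the genes grouped by role. Itga7, Itga4, Itga9 and Itgb6 are blue across the mutant arrays, Lama1 is red on them, and the rows of Col4a1 and Col4a2 stay pale.

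**Figure D2:**
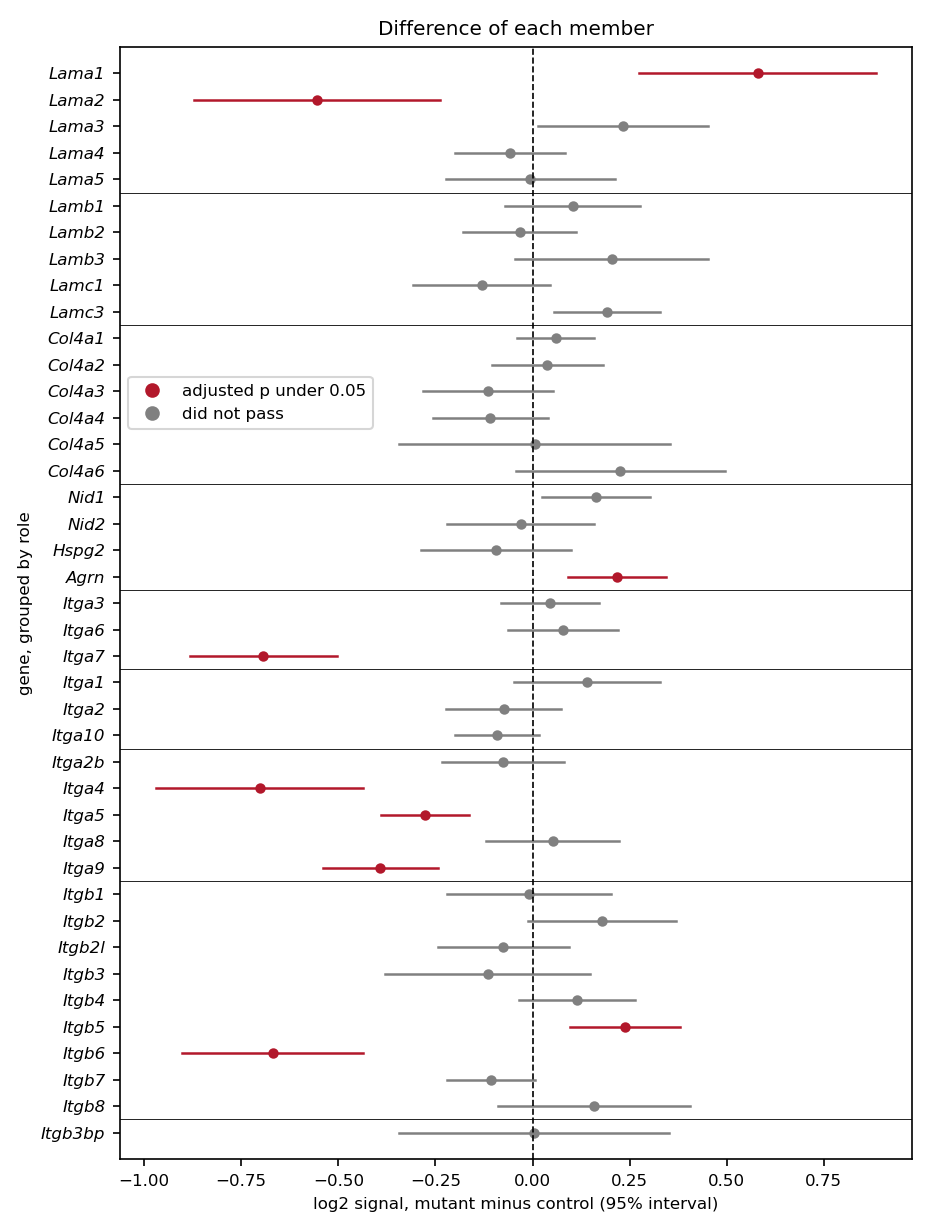
Difference of each of the 41 genes in log2 signal, mutant minus control, as a point with its 95% interval from the limma fit over all genes, grouped by role. The 9 genes that passed are red, with Itga4 at −0.70 and Lama1 at 0.58 as the outermost points.

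Among the laminin-binding integrins, Itga7 fell and its relatives did not pass. Itga7, the laminin receptor subunit of muscle, had 5.95, 6.12 and 6.37 as the lowest, median and highest log2 signal on the mutant arrays, against 6.64, 6.80 and 7.04 on the control arrays. Every mutant array was below every control array. The difference was −0.69 ± 0.09 (SE, limma adjusted p = 0.000458), a 1.62-fold lower signal, and it passed in all 24 alternative settings, between −0.74 and −0.65 with single arrays left out. Itga7 has 1 probe set on the array, with a signal close to the median of all probe sets. Itga6 and Itga3, the laminin receptor subunits shared by epithelia, differed by 0.08 (95% interval −0.06 to 0.22) and 0.04 (−0.08 to 0.17).

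Another 3 integrin alpha subunits with other ligands fell, and these are receptors known to bind fibronectin, the vascular adhesion molecule Vcam1 or tenascin. Itga4, which with beta 1 binds Vcam1 and fibronectin, had 9.36, 9.92 and 10.15 as its lowest, median and highest signal in mutants, against 10.43, 10.55 and 10.69 in controls. The groups did not overlap, and mutants 1, 2 and 4 were the lowest. Itga4 differed by −0.70 ± 0.12 (SE, limma adjusted p = 0.00280), and passed in all 24 alternatives. It was close in size to the falls of Itga7 and Itgb6: without mutant 1 it differed by −0.60, Itga7 by −0.65 and Itgb6 by −0.61. Its other probe sets differed by −1.12, −0.59, −0.35 and −0.02, from the second brightest to the dimmest, and of these the one at −0.59 passed (adjusted p = 0.00675 in a limma fit of every probe set). That fit over all probe sets passed 13 of the 90 probe sets of the members, with 5.40% of all probe sets passing.

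Itga9, a close relative of Itga4 in sequence whose dimer with beta 1 binds tenascin-C and Vcam1, had 7.001, 7.32 and 7.399 in mutants, against 7.55, 7.64 and 7.78 in controls. All mutant arrays were below all control arrays. The difference was −0.39 ± 0.07 (SE, limma adjusted p = 0.00287), and all 3 of its probe sets passed, the others at −0.50 and −0.24. Itga5, the fibronectin receptor subunit, fell less, with 6.57, 6.70 and 6.87 in mutants, against 6.90, 6.98 and 7.07 in controls. Again the groups did not overlap. The difference of −0.28 ± 0.05 (SE, limma adjusted p = 0.00429) rests on the brightest probe set, since the 3 dimmer ones differed by −0.01, −0.04 and −0.13 and did not pass, and the mean of all 4 differed by −0.12 (adjusted p = 0.226, within a range of 0.00181 to 0.226 over the alternatives). The remaining members of this class did not pass, with Itga8, the nephronectin receptor subunit, at 0.05 (95% interval −0.12 to 0.22) and the platelet subunit Itga2b at −0.08.

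Mutants 1, 2 and 4, the lowest in Itga4, were also the lowest in muscle markers, but mutant 6 did not follow. Relative to the control mean, the muscle list stood at −1.12, −0.82 and −0.84 on mutants 1, 2 and 4. It stood at −0.78 on mutant 6, which had the highest Itga4 of the mutants (10.15), and at −0.56 and −0.45 on mutants 3 and 5. Itga7, Itga9 and Itgb6 were also lowest on mutant 1. Itga5 was lowest on mutant 4 and next on mutant 5, where the muscle list was least reduced. Without mutants 1 and 2 the falls of Itga7, Itga4, Itga9, Itga5 and Itgb6 all passed. Of 8 neuron markers 7 rose, with a median of 0.68 and a list mean of 8.48 to 9.16 on mutant arrays, against 7.92 to 8.21 on control arrays. Of 11 oral epithelium markers 6 rose (median 0.26; list mean 11.02 to 11.36 in mutants, against 10.61 to 11.02 in controls). Of 10 mesenchyme markers 5 rose and 2 fell, with a median of 0.30. The part of these shifts in the integrin differences was not tested.

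**Figure D3:**
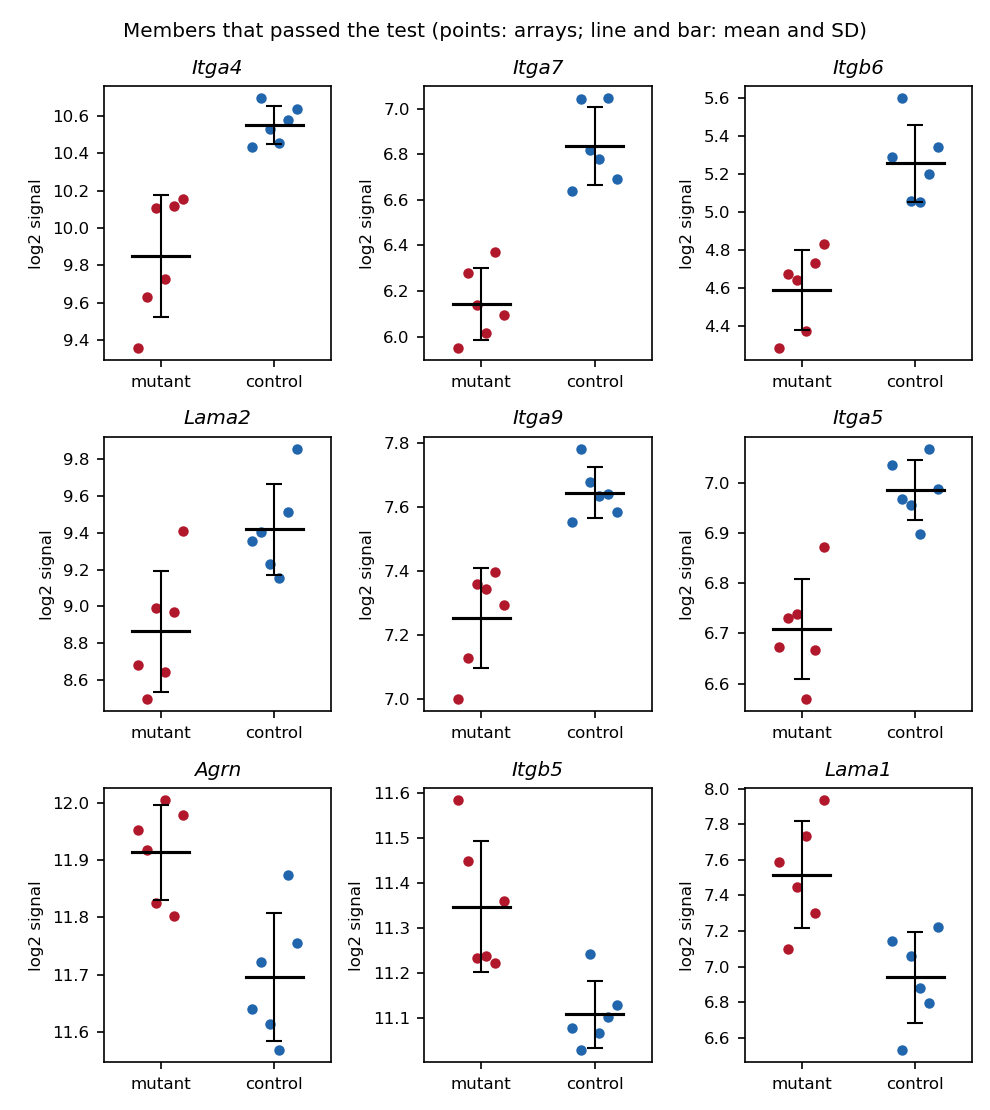
Log2 signal of the 9 genes that passed, in 6 mutant arrays (red, left) and 6 control arrays (blue, right); each point is an array and the line and bar are the mean and SD. The groups are fully apart for Itga4, Itga7, Itgb6, Itga9 and Itga5, and overlap for Lama2, Agrn, Itgb5 and Lama1.

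Promoters are shown for 4 of the 5 integrin genes that fell, all but Itga7, because the E-box, CANNTG, is the core bound by MyoD-family factors and by many other helix-loop-helix proteins. RefSeq windows (GRCm38.p6) were matched for 29 of the 41 genes by symbol; the 250 bases before the annotated start were scanned, and an E-box reads as CANNTG on both strands. Capitals mark each CANNTG in the sequences below, written 5′ to 3′ on the strand of the gene. Itga4 lies at chr2:79255176-79255425 on the plus strand, Itga9 at chr9:118711442-118711691 on the plus strand, Itga5 at chr15:103366792-103367041 on the minus strand and Itgb6 at chr2:60722604-60722853 on the minus strand. Itgb6 has 2 windows in the table, of which the first is printed.
Itga4: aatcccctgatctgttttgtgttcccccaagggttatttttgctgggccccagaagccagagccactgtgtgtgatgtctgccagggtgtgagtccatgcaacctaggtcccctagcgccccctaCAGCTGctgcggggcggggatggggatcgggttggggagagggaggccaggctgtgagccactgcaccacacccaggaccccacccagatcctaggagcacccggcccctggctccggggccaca
Itga9: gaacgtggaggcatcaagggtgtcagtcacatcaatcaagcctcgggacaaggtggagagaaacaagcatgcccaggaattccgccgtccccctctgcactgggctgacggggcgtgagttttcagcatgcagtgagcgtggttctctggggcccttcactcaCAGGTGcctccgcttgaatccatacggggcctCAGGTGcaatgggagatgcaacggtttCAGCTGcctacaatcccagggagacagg
Itga5: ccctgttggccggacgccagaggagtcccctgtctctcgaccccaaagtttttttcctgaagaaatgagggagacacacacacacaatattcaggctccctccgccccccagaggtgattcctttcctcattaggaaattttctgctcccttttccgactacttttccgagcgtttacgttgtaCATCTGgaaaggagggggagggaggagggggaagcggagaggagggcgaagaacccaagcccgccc
Itgb6: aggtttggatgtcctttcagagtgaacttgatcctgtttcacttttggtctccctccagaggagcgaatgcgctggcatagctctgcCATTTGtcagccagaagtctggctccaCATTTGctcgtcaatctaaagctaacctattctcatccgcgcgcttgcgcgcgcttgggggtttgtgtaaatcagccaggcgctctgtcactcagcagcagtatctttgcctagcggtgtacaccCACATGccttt

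The window of Itga4 holds 1 CANNTG, that of Itga9 holds 3, that of Itga5 holds 1 and each of the 2 windows of Itgb6 holds 3. At least 1 CANNTG stands in 66.2% of all 32851 promoter windows and in windows of 20 of the 29 members, so its presence does not set these genes apart. Here and below the shares of all windows count each window, while a member counts if any of its windows matches. The 29 members have 33 windows, so members with more than 1 window have more chances to match. The form CAGCTG, which is also counted in CANNTG, occurs in the windows of Itga4 and Itga9 and in 13.0% of all windows. It also occurs in windows of Itga1, Itga2b, Itgb2l, Itgb5 and Lamb3, none of which fell, which makes 7 of 29 members. The short SMAD-binding letters CAGAC, on either strand, occur in windows of 15 of the 29 members, Itga4, Itgb6 and Lama2 among them, and in 42.2% of all windows. The palindrome GTCTAGAC, which holds no full CAGAC, was found in the window of none of the 29 members and in 0.167% of all windows. These are matches of letters in short windows and not measured binding.

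The collagen-binding alpha subunits did not pass. Itga1 differed by 0.14, Itga2 by −0.07 and Itga10 by −0.09, and none of the 3 had an unadjusted p under 0.05 or passed the unequal-variance test.

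Of the 9 beta subunits, Itgb6 fell, Itgb5 rose and the common partner Itgb1 did not pass. Itgb1, which pairs with most of the alpha subunits above, had 9.56, 9.89 and 9.995 in mutants, against 9.48, 9.90 and 10.08 in controls. The range of the mutant arrays lay within that of the control arrays. Its difference was −0.01 ± 0.10 (SE, 95% interval −0.22 to 0.20, limma adjusted p = 0.970), and all 6 of its probe sets lay between −0.08 and 0.08.

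Itgb6, the epithelial partner of alpha v that activates latent TGF-β, had 4.28, 4.66 and 4.83 in mutants, against 5.05, 5.24 and 5.60 in controls. The groups did not overlap, and the difference was −0.67 ± 0.11 (SE, limma adjusted p = 0.00164). Both groups lay below the median of all probe sets, and its other probe set, also dim, differed by −0.14 and did not pass (adjusted p = 0.414 over all probe sets). Of the oral epithelium markers none fell, and Cldn4, a tight junction protein, rose by 0.46, Shh, the hedgehog ligand of oral epithelium, by 0.56, and Esrp1, an epithelial splicing factor, by 0.39. The other epithelial receptor subunit, Itgb4 of the hemidesmosome, differed by 0.11 (95% interval −0.03 to 0.26).

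Itgb5, a partner of alpha v that binds vitronectin, had 11.22, 11.30 and 11.58 in mutants, against 11.03, 11.09 and 11.24 in controls. The groups overlapped, and 3 of 6 mutant arrays were above every control array. The difference was 0.24 ± 0.07 (SE, limma adjusted p = 0.0321), and its other probe sets differed by 0.27, 0.22 and 0.21. The call ended with any of 7 arrays left out, namely mutants 1, 2 and 6 and controls 1, 2, 4 and 5, where it differed by 0.19 to 0.24 (adjusted p between 0.0515 and 0.0749), and it differed by 0.15 without mutants 1 and 2 together (0.149). It also ended without control 3, mutant 4 and mutant 6, at 0.29 (0.0604), without control 6 and mutant 6, at 0.24 (0.0714), and in the unequal-variance test (0.0739). Over its alternatives the adjusted p ran from 0.0172 to 0.149. The leukocyte subunits Itgb2 and Itgb7 differed by 0.18 and −0.11, the platelet and vascular subunit Itgb3 by −0.12, Itgb8, which also activates TGF-β, by 0.16, and Itgb2l by −0.08, and none of them passed. A dimmer probe set of Itgb3 fell by 0.17 (adjusted p = 0.0438 over all probe sets).

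Among the laminins, the alpha 1 and alpha 2 chains moved in opposite directions and the other chains did not pass. Lama1, the alpha chain of the first embryonic laminins, had 7.10, 7.52 and 7.94 in mutants, against 6.53, 6.97 and 7.23 in controls, with 5 of 6 mutant arrays above every control. It rose by 0.58 ± 0.14 (SE, limma adjusted p = 0.0177), a 1.49-fold higher signal. Lama2, the alpha chain of the muscle fibre's laminin and the gene of a congenital muscular dystrophy, had 8.50, 8.82 and 9.41 in mutants, against 9.15, 9.38 and 9.85 in controls, with 5 of 6 mutant arrays below every control. It fell by 0.55 ± 0.15 (SE, limma adjusted p = 0.0271), a 1.47-fold lower signal. Each of these genes has 1 probe set on the array.

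Within an array the log2 ratio of Lama1 to Lama2 signal had −1.67, −1.44 and −0.91 as its lowest, median and highest value in mutants, against −2.87, −2.45 and −2.17 in controls. Its ranges did not overlap, although those of each gene alone did. The ratio, which was formed after the values were known and was not tested, averaged −1.35 ± 0.29 in mutants and −2.48 ± 0.30 in controls (SD, n = 6 each); its absolute level depends on the probes. Mutant 6 and control 6 were highest in their group for both genes.

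The Lama1 rise passed with each array left out in turn. It did not pass in the unequal-variance test (adjusted p = 0.0568) or without control 3, mutant 4 and mutant 6, where it differed by 0.45 (0.109); over its alternatives the adjusted p ran from 0.00143 to 0.109. The Lama2 fall lost its call without mutant 1, 2 or 4 or control 2 or 5, where the difference was −0.56 to −0.48 (adjusted p between 0.0501 and 0.0652). Without mutants 1 and 2 together it differed by −0.42 (0.157), the unequal-variance test gave an adjusted p of 0.0776, and its adjusted p ran from 0.00379 to 0.157 over the alternatives.

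The laminin chains of epithelium and vessels did not pass. Lama3 and Lamb3, chains of the epithelial anchoring laminin, differed by 0.23 (95% interval 0.01 to 0.45, adjusted p = 0.176) and 0.20 (−0.05 to 0.45, 0.309). Lama5, the broadly used epithelial chain, differed by −0.01, and Lama4, the vessel chain, by −0.06. The chains shared by many trimers were Lamb1 at 0.10, Lamb2 at −0.03 and Lamc1 at −0.13, and Lamc3 stood at 0.19 (adjusted p = 0.0687). A dimmer probe set of Lamc1 fell by 0.29 (adjusted p = 0.0158 in the fit of every probe set), and with the mean of both probe sets Lamc1 differed by −0.21 (0.0390). Lamc3 passed after quantile normalisation (adjusted p = 0.0363). Of the 5 beta and gamma chains 1, Lamc3, had an unadjusted p under 0.05 and none passed the unequal-variance test.

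None of the 6 chains of type IV collagen passed the test. The abundant chains of nearly all basement membranes, Col4a1 and Col4a2, are neighbours transcribed from a shared promoter region. Col4a1 had 12.59, 12.73 and 12.81 in mutants, against 12.58, 12.68 and 12.71 in controls. Col4a1 differed by 0.06 (95% interval −0.04 to 0.16) and Col4a2 by 0.04 (−0.10 to 0.18), so a change of 0.2 or more on the log2 scale lies outside both intervals. Col4a5 and Col4a6, the paired X-linked chains, differed by 0.01 (−0.34 to 0.35) and 0.23 (−0.04 to 0.49). Col4a3 and Col4a4, chains of kidney and lung membranes, read 4.67 and 4.06 in mutants against 4.78 and 4.17 in controls, under the median of all probe sets, and differed by −0.11 each. No chain had an unadjusted p under 0.05 with limma or passed the unequal-variance test.

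Of the linkers and proteoglycans, Agrn passed with a small rise. Agrn, whose neural form clusters acetylcholine receptors at the neuromuscular junction, had 11.80, 11.94 and 12.004 in mutants, against 11.57, 11.68 and 11.87 in controls, with 4 of 6 mutant arrays above every control. The difference was 0.22 ± 0.06 (SE, limma adjusted p = 0.0280), and a dim second probe set differed by −0.10. The call ended with any of 7 arrays left out, namely mutants 1, 2, 4 and 6 and controls 1, 3 and 4 (differences of 0.19 to 0.22, adjusted p between 0.0521 and 0.0685). Without control 3, mutant 4 and mutant 6 it differed by 0.16 (0.213), without control 6 and mutant 6 by 0.22 (0.0592), and without mutants 1 and 2 by 0.21 (0.128). The call also ended with the mean of both probe sets, at 0.06 (0.609), and its adjusted p ran from 0.0122 to 0.609 over the alternatives. Nid1, which bridges laminin and collagen, differed by 0.16 (95% interval 0.02 to 0.30, adjusted p = 0.132), Nid2 by −0.03, and Hspg2, the perlecan core protein, by −0.09. Itgb3bp differed by 0.00 (adjusted p = 0.992).

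**Figure D4:**
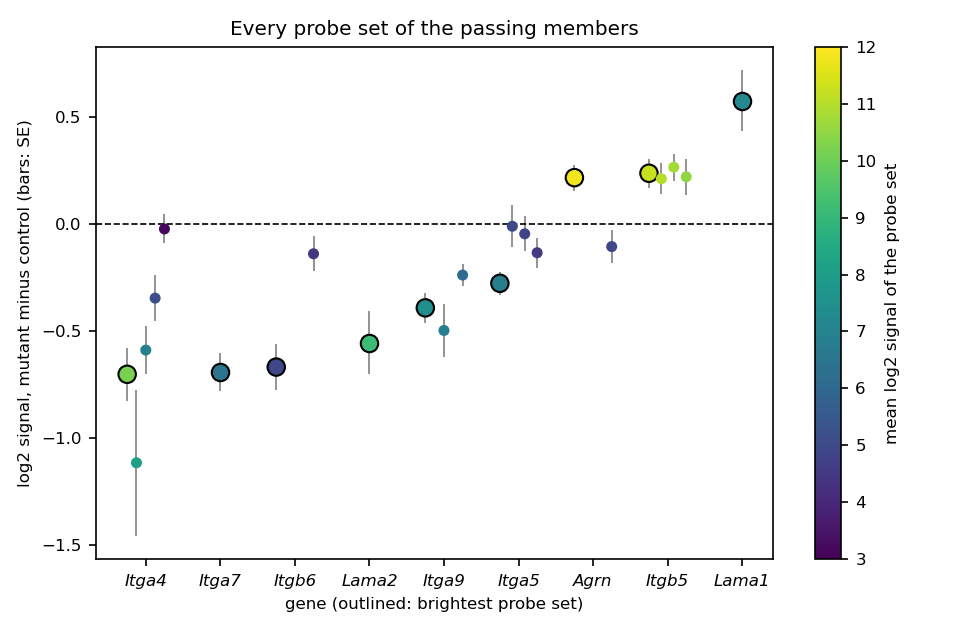
Difference in log2 signal, mutant minus control, of every probe set of the 9 genes that passed, with SE bars; colour gives the mean log2 signal, and the outlined larger point is the brightest probe set, which represents the gene. The probe sets of Itga9 and of Itgb5 lie together, while dim probe sets of Itga4, Itga5, Itgb6 and Agrn lie nearer to 0 or across it.

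Genes around the members were read from lists chosen with earlier results of these data known, by the same fit, and their counts are to be read against the 6.30% of all genes that rose and the 4.80% that fell. Of 21 other basement membrane and linker proteins, 4 rose (19.0%) and 1 fell (4.76%), with a median of 0.08. Npnt, nephronectin, the ligand of the alpha 8 integrin, was the one that fell, with 10.80, 11.00 and 11.09 in mutants, against 11.29, 11.59 and 11.75 in controls (−0.63 ± 0.08 SE, limma adjusted p = 0.000466), and its groups did not overlap. Fbln2, fibulin 2, rose by 0.61 and Smoc1, a calcium-binding matrix protein, by 0.32.

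Of 13 integrin ligands of the interstitial matrix or, for Vcam1 and Icam1, of the cell surface, 2 rose and 2 fell (15.4% each), with a median of 0.12. Vcam1, a ligand of the integrins that hold alpha 4 or alpha 9, had 10.39, 10.61 and 10.95 in mutants, against 9.84, 9.91 and 10.17 in controls, so that it was higher on all mutant arrays. Vcam1 rose by 0.67 ± 0.11 (SE, limma adjusted p = 0.00197). Ccn1 and Ccn2, matricellular proteins, fell by 0.53 and 0.74. Fibronectin (Fn1) differed by 0.05 (adjusted p = 0.874) and tenascin-C (Tnc) by −0.12 (0.457).

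Of 16 non-integrin receptors and receptor partners around the basement membrane, 3 passed (18.8%), all lower in mutants, and the list median was −0.03. Not all of them are receptors of laminin or type IV collagen, since Musk and Lrp4 belong to the agrin receptor. Dag1, dystroglycan, fell by 0.19, Musk, the kinase of the agrin receptor, by 0.50, and the adhesion molecule Mcam by 0.21, while Lrp4, the agrin-binding part of that receptor, differed by −0.10 (adjusted p = 0.554). Of 28 integrin adaptors and signalling proteins, 5 fell (17.9%) and 1 rose (3.57%), with a median of −0.05. Itgb1bp2, melusin, a striated muscle protein that binds the beta 1 tail, fell by 0.93 ± 0.14 (SE, limma adjusted p = 0.000918), Zyx, zyxin of focal adhesions, by 0.57, and Parvb, a parvin of the integrin-linked kinase complex, by 0.39. The kinase Ilk of that complex also fell, by 0.29, and is named after its value was seen.

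Of 16 genes of basement membrane assembly and collagen processing none passed with limma, although 4 had an unadjusted p under 0.05 and 1 passed the unequal-variance test. Of 13 genes of matrix breakdown, 2 rose and 2 fell (15.4% each): the metalloproteases Mmp16 and Mmp2 rose by 0.67 and 0.24, and Plat, tissue plasminogen activator, fell by 0.36 together with Mmp9, by 0.52, which is named because it completes the count. Among other cell types, 1 of 12 endothelium markers (Sox18, 0.24), 1 of 8 macrophage and leukocyte markers (Csf1r, 0.21) and 2 of 8 cartilage and tendon markers (Sox9 and Col9a1, 0.44 and 0.71) rose and none fell. Of 9 smooth muscle and pericyte markers, 3 fell (Tagln by 0.92, Acta2 by 0.45 and Abcc9 by 0.35) and none rose, with a median of −0.13. The differences of 3 were above 0, the largest that of the pericyte marker Rgs5 at 0.55 (limma adjusted p = 0.0651). Myh11 and Cnn1 read 5.37 and 5.42 in controls, under the median of all probe sets, and did not pass, so the list does not move as one. Of 6 Schwann cell and glia markers, Fabp7 and S100b rose by 1.00 and 0.79 and Erbb3 fell by 0.51. Among neuron markers Snap25, Tubb3 and Elavl4 rose by 1.51, 0.89 and 0.60, and Dlx5, Prrx1 and Pdgfra of the mesenchyme by 0.68, 0.61 and 0.41. None of the 4 platelet or 5 red cell markers passed with limma or the unequal-variance test, and 1 of each had an unadjusted p under 0.05.

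**Figure D5:**
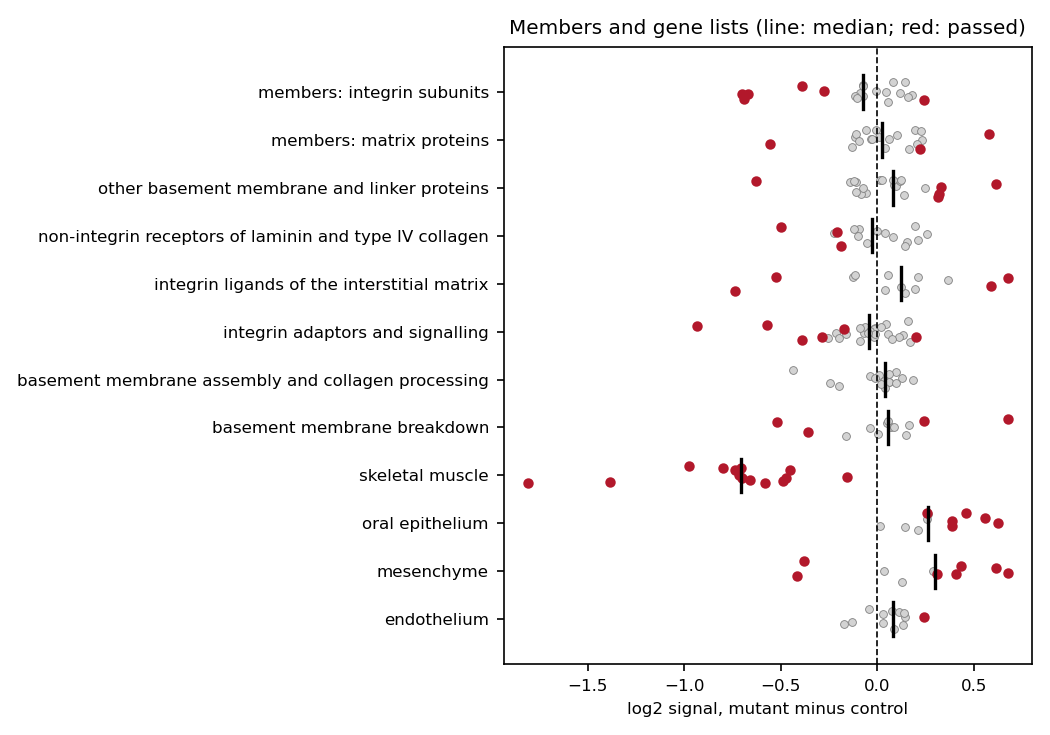
Difference in log2 signal, mutant minus control, of each gene (points, red where it passed, with a small vertical offset for legibility) in the integrin and matrix members in the pathway lists and in 4 of the marker lists, with the list median as a line. Skeletal muscle markers lie wholly below 0 with a median of −0.71, the integrin members have a tail of 5 lower genes about a median of −0.07, and the matrix members centre on 0.02.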

How the data were processed

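RNA of 12 samples of embryonic mouse tongue, 6 mutant and 6 control, was measured on Affymetrix whole-genome mouse arrays. The authors deposited log2 values per probe set, made with RMA per the submitters' processing notes; the labels name neither its version nor the log base, and base 2 was taken from the range of 2.57 to 15.09. RMA gives arrays nearly one distribution and compresses change in dim probe sets. Arrays carry no counting depth, and their number limits precision.

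From the 45101 probe sets, 64 controls were left out and 34945 had a single symbol in the platform annotation. Each gene was read at its brightest probe set over the 12 arrays. limma 3.58.1 in R 4.3.3 (lmFit, eBayes, 2-sided) compared genotypes over 18193 genes with Benjamini-Hochberg adjustment at 0.05, and was tested on simulated data. Members that passed are named in full, others by role, and up to 3 passing genes of each list by smallest p; Ilk and Mmp9 are named outside this rule. The members and lists were chosen with earlier results of these data known. Alternatives were normalisation, probe set summary, a filter on dim probe sets, variance models, array weights, an unequal-variance test, a replicate block and arrays left out. At most 0.149% of values were identical between any pair of arrays.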

Additional observations from a re-analysis of the deposited data

Results flagged for a closer look

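In 82 sets of 6 arrays (each gene in each genotype), 5 had an array far from the others by Dixon's criterion, which chance alone gives in about 1 set of 20. Lama3 read 8.62 on mutant 1, against 8.23 to 8.34 on the other mutants. Lamc1 read 10.14 on mutant 6, against 9.69 to 9.79, and Hspg2 read 9.45 on mutant 6, against 8.91 to 9.04. Itgb1 read 9.56 on mutant 6, against 9.87 to 9.995, and Itgb7 read 6.78 on mutant 6, against 6.54 to 6.63. None of these 5 genes passed between genotypes in the main fit or with any single array left out. Lamc1 passed with the mean of its probe sets (limma adjusted p = 0.0390). Without mutant 6, 10 members were lower at an unadjusted limma p under 0.05, against 6 in the main fit, and 5 were higher, against 6.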

How the results depend on the processing

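The 6 falls were the most stable count: 5 or 6 members fell in all 24 alternatives. The 3 rises were not stable. The count of rising members was 4 after quantile normalisation, where Lamc3 joined, 1 with p adjusted over all probe sets, 1 in the unequal-variance test, and 1 to 3 with single arrays left out. In settings added with earlier results known, it was 0 without control 3, mutant 4 and mutant 6 (limma; 4 had an unadjusted p under 0.05), 1 without control 6 and mutant 6, and 1 without mutants 1 and 2. Over all genes, 836 passed without control 3, mutant 4 and mutant 6 and 875 without mutants 1 and 2, against 2020 in all, with fewer samples in both. With the replicate block 2 members rose, 6 fell and 1932 genes passed. The labels give the numbers no meaning, and they were not taken as pairs because the correlation of same-numbered deviations was −0.06 for number 3; it was 0.12 to 0.24 for the other 5, and 4 of 6 mutant arrays correlated best with their own number, a hint of pairing from the data. Under the block Lamc3 gained a call (adjusted p = 0.0457) and Agrn and Itgb5 lost theirs (0.0684 and 0.0687), while Lama1 and Lama2 kept theirs (0.00143 and 0.00379). No member reversed its direction while called, and of the values of single members 937 kept their side of the threshold, 36 lost a call and 3 gained one. Array number and dim signal, not depth, limit what can be seen for Itgb6, Col4a3 and Col4a4.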
